A study of Mus musculus with 12 samples.

Results

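Sterol and fatty acid synthesis was followed through 33 genes chosen by name: the enzymes that turn acetyl-CoA into cholesterol, the proteins that control and carry sterols, and the enzymes that make, desaturate and elongate fatty acids. Of the 33 genes, 31 had a probe set that names 1 gene, and 30 passed a filter on dim signal and were tested among 10371 genes. Acaca, which encodes acetyl-CoA carboxylase, was measured by 1 probe set with a mean log2 value of 6.43 that did not pass the filter, and Insig1 and Acat2 were not analysed here. Each of the 30 genes lay above all absent-control probe sets on all 12 arrays, and the median gene was brighter than 79.0% of the genes tested.

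The RNA came from wild-type female C57BL/6 mice aged 10 weeks, and each of 4 groups had 3 arrays. In the injured groups 80% of the cord had been transected, whereas sham mice underwent only the laminectomy that exposes the cord. The sample titles call the sham cords naive. A 2.5 cm length centred on the lesion was collected 9 hours after surgery, and RNA bound to polysomes, the complexes of mRNA with several ribosomes, was separated on a sucrose gradient from an aliquot kept as total RNA. The labels do not say whether a replicate was 1 animal or a pool, so the p-values measure the spread between these samples. The tissue is whole cord, in which fewer cells of a type and less RNA per cell cannot be told apart. The series title names Cpeb1, a regulator of translation, and the comparisons ask how transcripts changed in amount and in ribosome loading after injury.

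Cholesterol does not cross readily from blood into the central nervous system, so the cord makes its own, and oligodendrocytes use large amounts of it, with fatty acids, for myelin. The mevalonate pathway builds farnesyl diphosphate, squalene synthase joins farnesyl units, and a chain of enzymes turns the first sterol, lanosterol, into cholesterol. The transcription factors SREBP-1 and SREBP-2, encoded by Srebf1 and Srebf2, switch on most of these genes. When sterols are plentiful, INSIG proteins hold the SREBP carrier SCAP in the endoplasmic reticulum. When sterols are scarce, SCAP carries SREBP to the Golgi, where proteases release its active part.

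The arrays differed between the groups in ways that bear on these values. The difference between the 3′ and 5′ control probe sets of Gapdh, which grows with shortened RNA or cDNA, was 2.83 ± 0.27 on injured polysome arrays and 0.87 ± 0.03 on sham polysome arrays (log2, mean ± SD, n = 3). In total RNA it was 1.40 ± 0.22 on injured arrays and 0.23 ± 0.05 on sham arrays. The hybridization spike-ins averaged 10.37 ± 0.05 on injured and 10.81 ± 0.04 on sham polysome arrays, and 10.45 ± 0.08 on injured and 10.99 ± 0.15 on sham total arrays. The median log2 change of all genes tested was -0.04 on polysomes and 0.12 in total RNA. The part of these array differences in the results below was not tested.

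On polysomes, 6 of the 8 genes that turn lanosterol into cholesterol and 4 of the 5 that desaturate and elongate fatty acids were lower after injury, with 2 of 6 in the mevalonate arm and none of the 3 for squalene and lanosterol. Fdps, Nsdhl, Dhcr7 and Msmo1 changed most. Of the 30 genes, 15 were lower and 2 were higher in injured than in sham polysome-bound RNA at a limma adjusted p threshold of 0.05. Among all genes tested, 25.3% were lower and 13.7% were higher. The median change of the 30 genes was -0.25 on the log2 scale, and 22 of them lay below the median of all genes. The 3 injured arrays lay wholly below the 3 sham arrays for 15 of the 30 genes and wholly above for 2, where 28.6% and 17.8% of all genes did so. The genes called lower had 9 dimmer probe sets, of which 5 were also called lower, 4 were not called and none was called higher by limma. The heat map of single arrays shows where along the pathway the lower values sat.

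**Figure D1:**
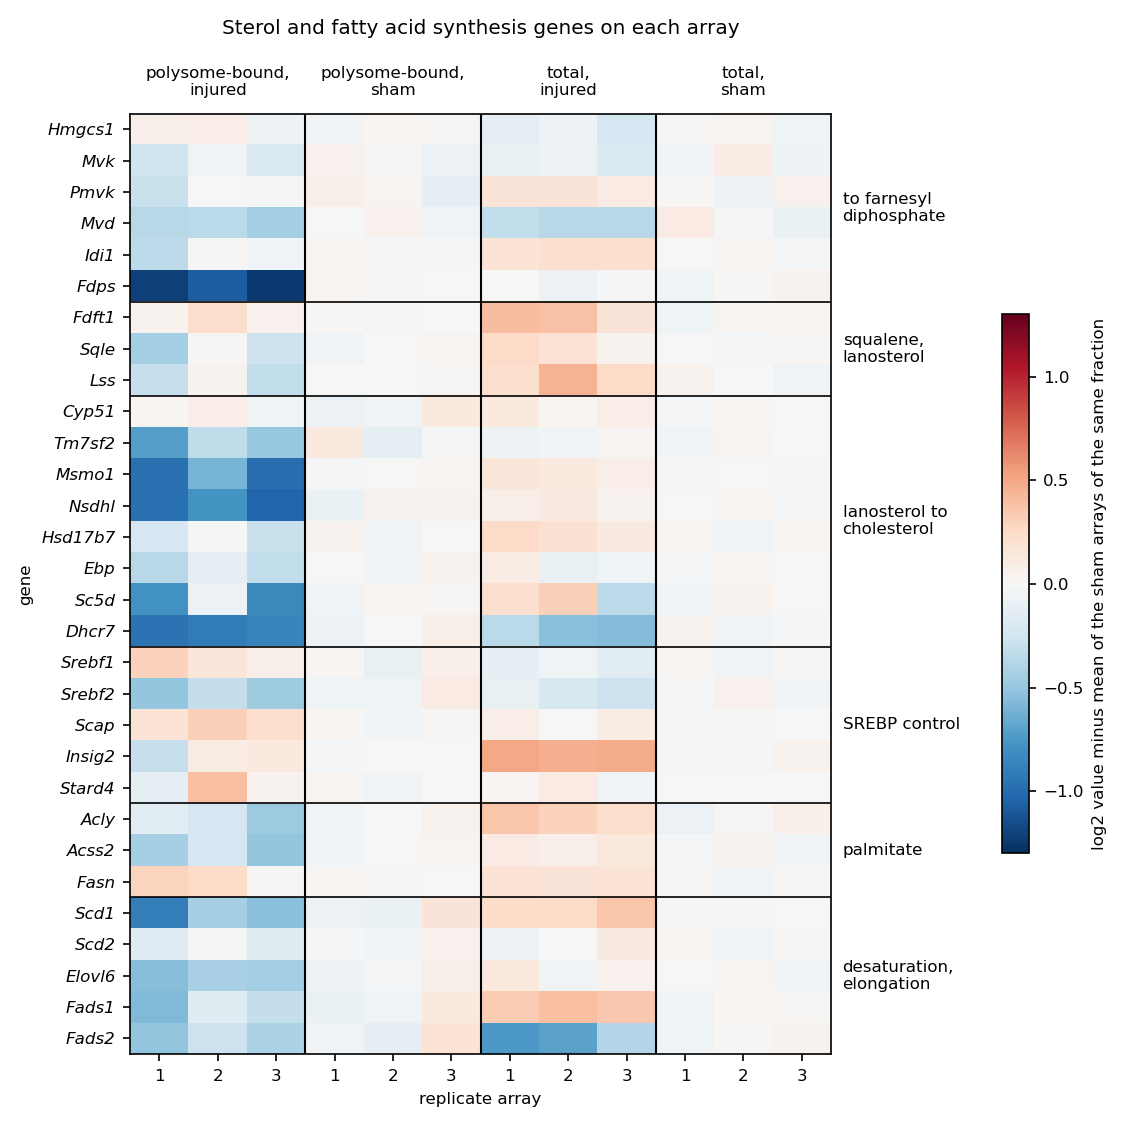
Each row is 1 of the 30 genes, ordered by pathway step, and each column 1 array, with injured arrays left of sham arrays in each fraction. Colour gives the log2 value minus the mean of the 3 sham arrays of the same fraction, blue for lower and red for higher. The deepest blue is Fdps on injured polysome arrays, and the same row is near white in total RNA.

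The enzymes of the mevalonate arm, which make farnesyl diphosphate, held both the largest change and some of the smallest. Fdps, farnesyl diphosphate synthase, had log2 values of 8.79, 8.94 and 8.76 on injured polysome arrays, against 10.04, 9.98 and 9.99 on sham polysome arrays. The groups were far apart relative to their spread. The injured level was 0.443 times the sham level (log2 -1.18, SE 0.06, limma adjusted p = 2.9e-08). In total RNA Fdps had 9.99, 9.92 and 9.97 in injured cord and 9.95, 10.01 and 10.04 in sham cord, so that the arrays overlapped (log2 -0.04, SE 0.06, limma adjusted p = 0.63). Both quantile normalizations and cyclic loess of the arrays called it lower there too, by a smaller change than on polysomes (-0.32 to -0.29), and median centring left it at -0.12, not called. Mvd, mevalonate diphosphate decarboxylase, fell by 0.38 (SE 0.06) on polysomes and by 0.35 (SE 0.06) in total RNA, to a like extent in both fractions. Hmgcs1, the cytosolic HMG-CoA synthase, gave 0.03 on polysomes (SE 0.05, limma adjusted p = 0.74). There, 3 dimmer probe sets gave -0.17, -0.19 and -0.43, each called lower, so the probe sets of this gene disagree. The kinases Mvk and Pmvk gave -0.17 and -0.10 on polysomes, and the isomerase Idi1 gave -0.12, none of them called. A second probe set of Mvk gave -0.37 and was called lower. In total RNA it gave -0.51, also called lower, where the brightest gave -0.11, not called.

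Squalene and lanosterol are made by Fdft1, the squalene synthase, Sqle, the squalene epoxidase, and Lss, which closes the ring. On polysomes they gave 0.11, -0.23 and -0.19, and none passed the threshold (limma adjusted p = 0.24, 0.063 and 0.098). Fdft1 had 11.63, 11.81 and 11.64 on injured polysome arrays and 11.60, 11.56 and 11.59 on sham polysome arrays, a small separation upwards. A second, dimmer probe set of Fdft1 lay the other way. It had 10.53, 10.65 and 10.59 on injured and 10.74, 10.70 and 10.69 on sham polysome arrays (log2 -0.12, not called). Sqle overlapped, at 9.47, 9.92 and 9.64 on injured against 9.86, 9.92 and 9.95 on sham polysome arrays. A dimmer probe set of Lss gave -0.17 and was called lower.

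Of the 8 genes for the conversion of lanosterol into cholesterol, 6 were lower on polysomes, as deposited and under each of 4 other scalings of the arrays (quantile normalization over all arrays or within fractions, median centring and cyclic loess). Nsdhl, the C4 sterol dehydrogenase that works with Msmo1, had 8.30, 8.48 and 8.24 on injured polysome arrays, against 9.18, 9.31 and 9.31 on sham polysome arrays. Its level was 0.527 times that of sham (log2 -0.92, SE 0.07, limma adjusted p = 5.6e-07). Msmo1, the C4 methyl oxidase, had 9.49, 9.86 and 9.47 on injured polysome arrays, against 10.44, 10.46 and 10.50 on sham polysome arrays. The change was -0.85 (SE 0.08, limma adjusted p = 6.5e-06). In total RNA both genes stayed within 0.12 of sham on the log2 scale as deposited and were not called, whereas quantile normalization over the 12 arrays placed them at -0.19 (Nsdhl) and -0.18 (Msmo1), both called lower.

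Dhcr7, whose enzyme makes cholesterol from 7-dehydrocholesterol in the last step, had 8.58, 8.63 and 8.66 on injured polysome arrays, against 9.46, 9.54 and 9.61 on sham polysome arrays. The change was -0.91 (SE 0.07, limma adjusted p = 5.5e-07). Dhcr7 was also lower in total RNA, at 9.24, 9.04 and 9.02 in injured and 9.63, 9.56 and 9.57 in sham cord (log2 -0.48, SE 0.07, limma adjusted p = 5.9e-05). Under the other scalings its change in total RNA reached -0.78, and the difference between its changes in the fractions, -0.43 as deposited, was called under 1 of the 4.

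Tm7sf2, a sterol C14 reductase, had 6.87, 7.26 and 7.09 on injured polysome arrays and 7.72, 7.47 and 7.57 on sham polysome arrays (log2 -0.51, SE 0.09, limma adjusted p = 0.00035). Ebp, the sterol isomerase, fell by 0.27 on polysomes (SE 0.07, limma adjusted p = 0.0073). Sc5d, the lathosterol oxidase, had 8.99, 9.71 and 8.94 on injured polysome arrays, against 9.73, 9.81 and 9.80 on sham polysome arrays. Injured replicate 2 lay close to the sham arrays while the other 2 were far below (log2 -0.57, SE 0.18, limma adjusted p = 0.021). The call on Sc5d was lost without injured polysome replicate 1 (-0.46) or 3 (-0.43), and without sham polysome replicate 2 (-0.55) or 3 (-0.56). Cyp51, the lanosterol demethylase that starts this stretch, gave 0.02, and Hsd17b7, the 3-keto sterol reductase, gave -0.18 (limma adjusted p = 0.83 and 0.052).

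Genes of this pathway are known to carry sterol regulatory elements and CCAAT boxes, which bind SREBP and the factor NF-Y, near their starts. The RefSeq promoter windows (assembly GRCm38.p6), which cover the start of a gene and the bases just before it, were available for 26 of the 33 genes, in 34 windows. CCAAT, on either strand, was found for 21 of the 26 genes (80.8%), and for 42.5% of the tested genes that have a window. Over single windows the shares were 64.7% for the 34 and 36.9% for the tested genes. The GC box GGGCGG was found for 84.6% of the 26 genes and 66.8% of the tested genes. The sterol element searched as TCACNCCAC was found for 1 of the 26, Hmgcs1, and for 1.51% of the tested genes. No motif searched contains another, and a match of letters is not a bound site. CCAAT was found for 10 of the 12 genes with a window that were lower on polysomes, and for 9 of the 9 that were not called.

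The stretches below are shown for the 3 genes with a window that fell most on polysomes (Nsdhl, Dhcr7 and Msmo1), for Hmgcs1, the single match of the sterol element, and for Mvk, which has the most CCAAT boxes and was not called on polysomes. Each runs 5′ to 3′ on the strand of the gene, ends before its start, and has CCAAT or its reverse ATTGG in capitals. In the line of Hmgcs1 the capitals TCACCCCAC are the sterol element.
Nsdhl: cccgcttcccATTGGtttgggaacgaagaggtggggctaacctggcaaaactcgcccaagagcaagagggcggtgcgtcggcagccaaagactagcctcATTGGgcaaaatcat
Msmo1: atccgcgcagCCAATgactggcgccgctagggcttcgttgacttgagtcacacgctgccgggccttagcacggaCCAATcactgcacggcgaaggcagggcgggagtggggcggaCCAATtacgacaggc
Dhcr7: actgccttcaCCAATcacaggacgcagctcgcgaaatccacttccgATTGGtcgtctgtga
Hmgcs1: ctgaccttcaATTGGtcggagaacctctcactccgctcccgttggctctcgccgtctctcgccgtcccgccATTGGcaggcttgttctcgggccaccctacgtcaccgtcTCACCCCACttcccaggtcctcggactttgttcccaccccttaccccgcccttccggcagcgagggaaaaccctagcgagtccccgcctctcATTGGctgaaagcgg
Mvk: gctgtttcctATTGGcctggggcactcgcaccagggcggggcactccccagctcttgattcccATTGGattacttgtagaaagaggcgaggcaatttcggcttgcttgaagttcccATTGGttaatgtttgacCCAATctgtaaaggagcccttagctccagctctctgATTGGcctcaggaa
Nsdhl lies at chrX:72918402-72918515 on the plus strand, Msmo1 at chr8:64733619-64733748 on the minus strand, and Dhcr7 at chr7:143830119-143830179, Hmgcs1 at chr13:119690104-119690320 and Mvk at chr5:114444086-114444268 on the plus strand.

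Of the 5 regulators and carriers tested, Srebf2 was lower and Scap higher on polysomes. Srebf2, which encodes the SREBP that mainly drives cholesterol genes, had 8.62, 8.82 and 8.66 on injured polysome arrays, against 9.07, 9.07 and 9.23 on sham polysome arrays. The injured arrays lay below all sham arrays (log2 -0.42, SE 0.07, limma adjusted p = 0.00042). In total RNA it had 9.46, 9.35 and 9.29 in injured and 9.54, 9.61 and 9.52 in sham cord (log2 -0.19, SE 0.07, limma adjusted p = 0.036). That call was lost without injured total replicate 2 (-0.18) or 3 (-0.15) and without sham total replicate 1 (-0.20), 2 (-0.16) or 3 (-0.21). A second, dimmer probe set of Srebf2 was called lower in both fractions. It gave -0.52 in total RNA and -0.24 on polysomes (SE 0.08 each), so the probe sets differ on which fraction fell more.

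Srebf1, which encodes the SREBP that mainly drives fatty acid genes, had 10.00, 9.85 and 9.77 on injured polysome arrays and 9.73, 9.60 and 9.77 on sham polysome arrays (log2 0.17, SE 0.07, limma adjusted p = 0.065). The groups met at 9.77, and under each of the 4 other scalings Srebf1 was called higher on polysomes (0.24 to 0.28). In total RNA it had 9.38, 9.44 and 9.35 in injured and 9.53, 9.44 and 9.50 in sham cord (log2 -0.10, SE 0.07, limma adjusted p = 0.23), and 3 of the 4 other scalings called it lower (-0.36 to -0.18 over the 4). Scap, the SREBP carrier, had 9.70, 9.83 and 9.73 on injured polysome arrays, above 9.54, 9.48 and 9.53 on sham polysome arrays (log2 0.23, SE 0.06, limma adjusted p = 0.0049). In total RNA Scap had 9.90, 9.83 and 9.92 in injured and 9.81, 9.84 and 9.81 in sham cord, which overlapped.

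Insig2, an anchor of SCAP, was higher in total RNA. It had 10.05, 10.03 and 10.03 in injured total RNA, against 9.54, 9.53 and 9.60 in sham total RNA (log2 0.48, SE 0.09, limma adjusted p = 0.0005). This was the largest rise of the set in total RNA, 0.37 above the median of all genes, and it was called under all 5 scalings. On polysomes Insig2 overlapped, at 9.09, 9.49 and 9.52 on injured and 9.38, 9.40 and 9.39 on sham arrays (log2 -0.02, SE 0.09, limma adjusted p = 0.86). A second probe set gave 0.42 in total RNA and was called, and the third gave 0.11 and was not. On polysomes the second gave -0.04, not called, whereas the third gave -0.31 and was called lower. Stard4, which carries cholesterol between membranes, had 9.10, 9.60 and 9.26 on injured and 9.26, 9.17 and 9.22 on sham polysome arrays. In total RNA it had 8.90, 8.99 and 8.83 in injured and 8.88, 8.88 and 8.87 in sham cord, and it was called in neither fraction as deposited. Under each of the 4 other scalings it was called higher on polysomes (0.19 to 0.21). A second, dimmer probe set of Stard4 was called lower in both fractions as deposited (-0.29 on polysomes and -0.38 in total RNA), so the probe sets of this gene disagree.

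Of the 3 genes tested around palmitate synthesis, Acly and Acss2 were lower and Fasn higher on polysomes by their brightest probe sets. Acly, which makes cytosolic acetyl-CoA from citrate, had 11.50, 11.43 and 11.18 on injured polysome arrays, against 11.61, 11.64 and 11.70 on sham polysome arrays (log2 -0.28, SE 0.08, limma adjusted p = 0.0099). In total RNA it moved the other way, at 11.74, 11.68 and 11.61 in injured and 11.30, 11.39 and 11.45 in sham cord (log2 0.30, SE 0.08, limma adjusted p = 0.0044). The polysome call on Acly held under 2 of 4 other scalings, and the rise in total RNA under 1 of 4. Among its other probe sets, one nearly as bright gave -0.08 on polysomes, not called, and 0.20 in total RNA, called higher. A dimmer one gave -0.74 on polysomes, called lower, and 0.17 in total RNA, not called.

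Acss2, which makes acetyl-CoA from acetate, had 9.54, 9.74 and 9.46 on injured polysome arrays, against 9.93, 9.96 and 10.00 on sham polysome arrays (log2 -0.39, SE 0.07, limma adjusted p = 0.00058). A second probe set of Acss2 gave -0.18 on polysomes, not called. In total RNA that probe set gave 0.23, called higher, and the brightest 0.10, not called. Fasn, the fatty acid synthase that builds palmitate, gave 0.19 on polysomes (SE 0.07, limma adjusted p = 0.042). Its arrays touched, with injured replicate 3 at 10.69 between sham values of 10.65 and 10.71, and the call held in only 1 of the 12 fits that left out 1 array, with changes of 0.13 to 0.27. In total RNA Fasn was called at 0.18, and not after any of the 4 other scalings.

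Of the 5 genes that desaturate and elongate fatty acids, 4 were lower on polysomes. Scd1, the stearoyl-CoA desaturase that makes oleate, had 9.12, 9.59 and 9.48 on injured polysome arrays, against 9.95, 9.94 and 10.19 on sham polysome arrays (log2 -0.62, SE 0.10, limma adjusted p = 0.00032). Elovl6, which lengthens palmitate, had 9.14, 9.28 and 9.25 on injured and 9.63, 9.68 and 9.77 on sham polysome arrays (log2 -0.47, SE 0.07, limma adjusted p = 0.00011). All 3 injured arrays of both genes lay below all 3 sham arrays. A dimmer probe set of Elovl6 was called lower in both fractions, at -0.28 on polysomes and -0.26 in total RNA. There the brightest gave 0.05, not called.

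Fads1 and Fads2 encode the desaturases of polyunsaturated fatty acids. Fads1 had 9.37, 9.78 and 9.63 on injured and 9.85, 9.89 and 10.06 on sham polysome arrays (log2 -0.35, SE 0.09, limma adjusted p = 0.007). Fads2 had 8.06, 8.29 and 8.16 on injured and 8.53, 8.45 and 8.76 on sham polysome arrays (log2 -0.40, SE 0.10, limma adjusted p = 0.0054). In total RNA they went apart, with Fads1 at 11.41, 11.47 and 11.43 in injured and 11.04, 11.11 and 11.09 in sham cord (log2 0.36, SE 0.09, limma adjusted p = 0.0035). Fads2 had 8.63, 8.68 and 9.00 in injured and 9.32, 9.39 and 9.42 in sham total RNA (log2 -0.61, SE 0.10, limma adjusted p = 0.0002), the largest fall of the set in that fraction. The rise of Fads1 was called under 1 of 4 other scalings and the fall of Fads2 under all 4.

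Scd2, the desaturase isoform most abundant in brain, was not called by its brightest probe set in either fraction, with changes of -0.12 on polysomes and 0.02 in total RNA. Its second probe set gave -0.61 on polysomes and -0.44 in total RNA, both called lower. The third had 6.79, 6.77 and 8.05 in injured and 9.29, 9.36 and 9.32 in sham total RNA, and only 1 of its 3 injured values exceeded all absent controls, so no exact change is given for it. On polysomes the third probe set was at 7.09, 7.43 and 9.66 on injured and 7.49, 7.36 and 7.47 on sham arrays. Injured replicate 3 stood apart from the other injured arrays in both fractions there, so no single change describes Scd2.

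**Figure D2:**
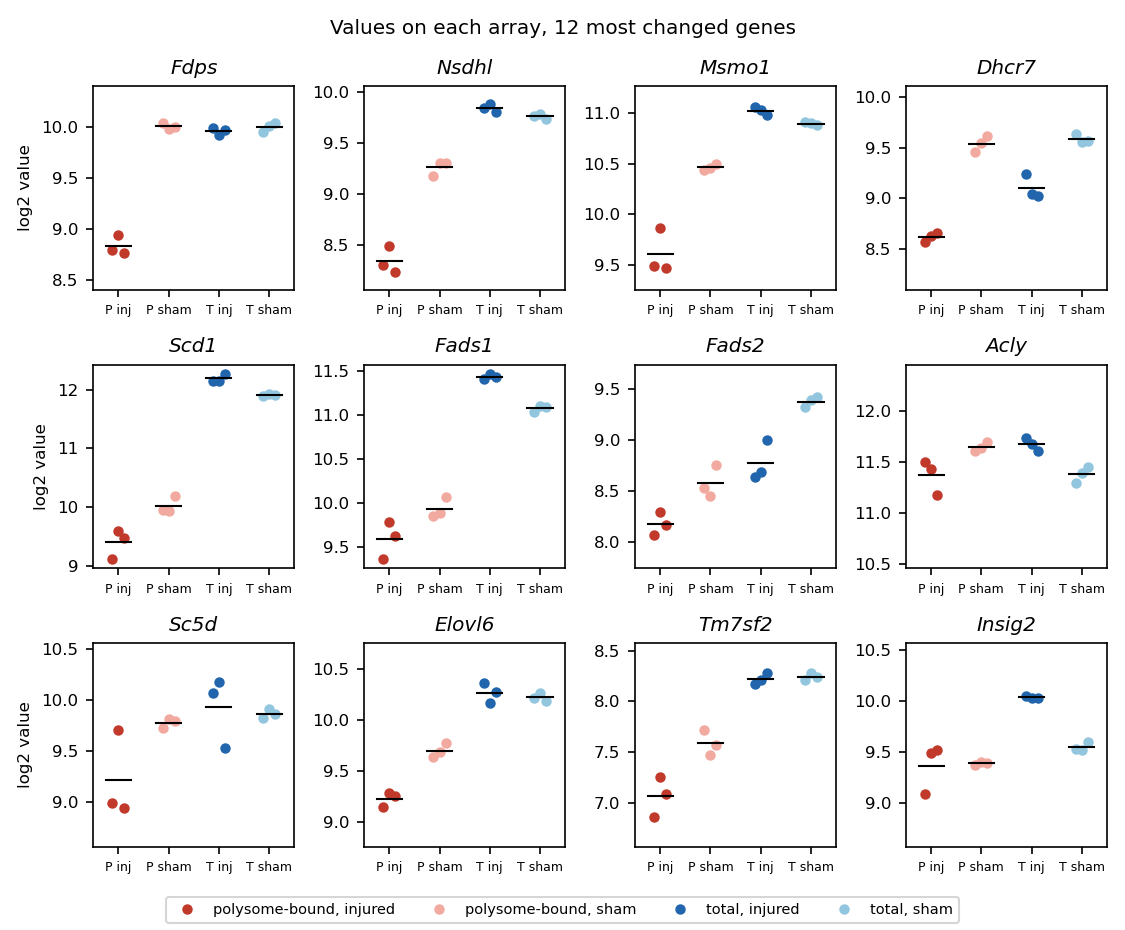
Log2 values of the 12 genes with the largest called change, on each array. Points are arrays, in the order polysome-bound injured (P inj), polysome-bound sham (P sham), total injured (T inj) and total sham (T sham), and bars are means of 3. Fdps, Nsdhl and Msmo1 are separated on polysomes and lie close together in total RNA as deposited, Dhcr7 in both, and Insig2, by its brightest probe set, in total RNA alone.

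In total RNA, 9 of the 30 genes were higher and 5 were lower in injured than in sham cord as deposited, and after quantile normalization over the 12 arrays 1 was higher and 16 were lower. Among all genes tested 42.1% were higher and 18.1% lower as deposited, and 22.8% and 18.0% after that normalization. The median change of the 30 genes was 0.07 on the log2 scale, which is -0.05 relative to all genes, and 18 of the 30 lay below the median of all genes. The arrays did not overlap for 14 genes upwards and 7 downwards, where 51.0% and 21.7% of all genes did so. Among the brightest 25% of the genes tested, the share higher was 68.0%. The higher genes were Insig2, Fads1, Fdft1, Lss, Acly, Scd1, Idi1, Hsd17b7 and Fasn, and the lower ones Fads2, Dhcr7, Mvd, Srebf2 and Hmgcs1. Relative to the median of all genes, the lower ones ranged from -0.72 for Fads2 to -0.25 for Hmgcs1.

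The falls in total RNA were called under all 4 other scalings, and the rises were not. Insig2 was called higher under all 4, Fdft1, Lss, Acly and Fads1 under 1 of 4, and Idi1, Hsd17b7, Fasn and Scd1 under none. After quantile normalization over the 12 arrays Idi1 stood at -0.10 and Fasn at -0.12. Fdft1 had 11.12, 11.09 and 10.89 in injured and 10.66, 10.75 and 10.74 in sham total RNA (log2 0.32, SE 0.07, limma adjusted p = 0.0017). Lss had 8.62, 8.85 and 8.64 in injured and 8.44, 8.40 and 8.35 in sham total RNA (log2 0.31, SE 0.09, limma adjusted p = 0.008). For these genes the injured arrays lay above the sham arrays as deposited. A second probe set of Fdft1 was also called higher (0.14), and one of Lss was called lower (-0.14), while 2 further ones of Fdft1 and 1 of Lss did not exceed the absent controls throughout either group. Dimmer probe sets of Hsd17b7 (-0.70) and Scd1 (-0.25) were called lower in total RNA, against their brightest. Of 9 such probe sets above the absent controls on all arrays of a group, for genes called higher, 3 were called higher, 3 lower and 3 not called. Of 6 for genes called lower, 3 were called lower and 3 were not called. Those not called were all of Hmgcs1, at -0.04, -0.08 and 0.02 in total RNA. Several calls here also rested on single arrays. Leaving out 1 array ended the call in 7 of 12 cases for Hmgcs1 (changes -0.17 to -0.09) and Fasn (0.16 to 0.18), in 9 for Idi1 (0.19 to 0.21), in 6 for Scd1 (0.24 to 0.30) and in 3 for Hsd17b7 (0.16 to 0.22), namely injured total replicates 1 and 2 and sham total replicate 2.

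**Figure D3:**
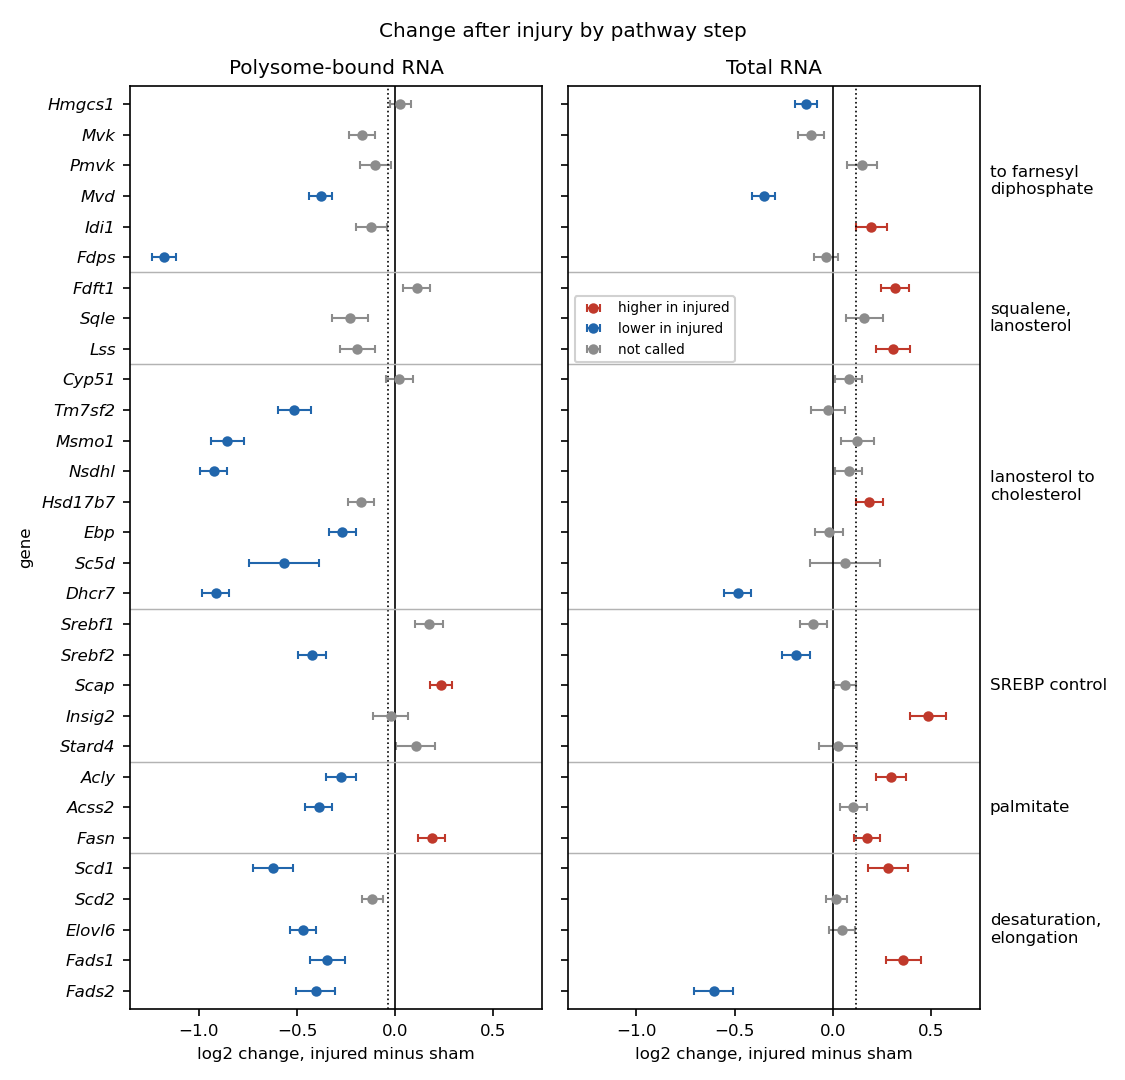
Log2 change after injury of each gene in polysome-bound RNA (left) and total RNA (right), as deposited. Points are limma estimates, bars are standard errors, colours mark the call at an adjusted p threshold of 0.05, and the dotted line is the median of all genes tested. Fdps, Nsdhl, Dhcr7 and Msmo1 lie farthest to the left on polysomes, and Fads2 and Dhcr7 do so in total RNA.

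The change on polysomes minus the change in total RNA tests whether injury shifted the fractions unequally. As deposited it was lower for 16 of the 30 genes and higher for 1, and for 6 and 7 genes after quantile normalization over the 12 arrays. Among all genes tested 39.3% were lower and 11.0% higher as deposited, with a median of -0.16, and 18.1% and 16.0% after quantile normalization, close to the shares of the 30 genes. Among the 2593 brightest genes tested, 58.5% were lower and 2.89% higher as deposited, with a median of -0.34, or -0.17 relative to all genes. The 30 genes lay close to these, with 53.3% lower and a median of -0.34, or -0.18 relative to all genes. As a set they were thus not lower in the difference than the brightest genes. Within the set, single genes went further. Fdps had the largest difference (-1.14, SE 0.09, limma adjusted p = 3.9e-06), followed by Nsdhl (-1.005, SE 0.10, limma adjusted p = 1.4e-05), Msmo1 (-0.98, SE 0.12, limma adjusted p = 5.6e-05), Scd1 (-0.90, SE 0.14, limma adjusted p = 0.0003) and Fads1 (-0.71, SE 0.13, limma adjusted p = 0.00061). These genes and Tm7sf2 (-0.49, SE 0.12) were called lower under all 4 other scalings and without any 1 array.

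The other 10 lower differences depended on the scaling. They ranged from -0.57 for Acly to -0.25 for Ebp as deposited, and each was called under at most 1 of the 4 other scalings. For Hsd17b7, at -0.36 by its brightest probe set, the other probe set gave 0.80 and was called higher. A dimmer probe set of Elovl6 and one of Lss each gave -0.02, not called. Of 11 dimmer probe sets of the 16 genes with a lower difference, 6 were called lower, 1 higher and 4 not called. Dhcr7 was at -0.43 as deposited and 0.03 after quantile normalization, Idi1 at -0.32 and 0.04, and Ebp at -0.25 and 0.04. By their brightest probe sets Scap, Hmgcs1 and Fads2, not called as deposited, were called higher in the difference under all 4 other scalings (0.36 to 0.53, 0.35 to 0.47 and 0.39 to 0.60). As deposited, dimmer probe sets of Hmgcs1 gave -0.13 and -0.11, not called, and -0.45, called lower, so its probe sets disagree. A second probe set of Fads2 gave 0.42 and was called higher. The single higher difference, that of Srebf1 (0.27, SE 0.10, limma adjusted p = 0.034), was called under all 4 other scalings (0.46 to 0.63), but it was lost in 7 of the 12 fits that left out 1 array (0.21 to 0.33). On polysomes, 14 of the 15 falls were called under all 4 other scalings, and 13 of those also without any 1 array. The lower share among all genes after quantile normalization was 18.1% on polysomes, where 16 of the 30 genes were lower.

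**Figure D4:**
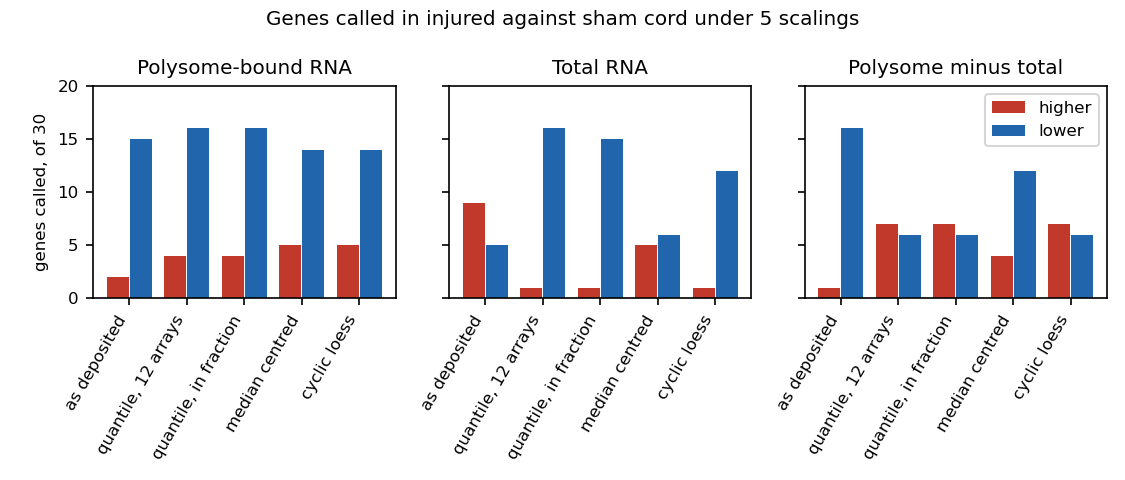
Number of the 30 genes called higher (red) or lower (blue) in injured against sham cord under 5 scalings of the arrays, for polysome-bound RNA, total RNA and the difference between them. The blue bars on polysomes stay between 14 and 16, whereas in total RNA the red bar falls to 1 under 3 scalings and the blue bar of the difference falls to 6 under the same 3.

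Polysome-bound against total RNA within a condition gives each gene's loading. The fractions were not brought to a common scale, so calls on the deposited values count the shift of all genes too. In injured cord 7 of the 30 genes were called higher and 21 lower on polysomes, where 13.6% and 72.7% of all genes were. In sham cord 10 were called higher and 15 lower, where 21.0% and 59.1% of all genes were. With each array centred on the median of the genes tested, 12 were higher and 12 lower in injured cord, where 43.6% and 28.7% of all genes were, and 13 and 12 in sham cord, where 37.6% and 39.1% were. The medians of the 30 genes were -0.15 in injured and 0.14 in sham cord relative to all genes. Scd1 was the least loaded gene of the set in both, at -2.37 in injured and -1.58 in sham cord relative to all genes, and Fads1 followed with -1.43 and -0.84. Next least loaded were Nsdhl in injured cord (-1.09) and Fads2 in sham cord (-0.50). Fdft1 was the most loaded in both by its brightest probe set, at 1.08 in injured and 1.17 in sham cord on that scale. A second probe set of Fdft1, with 0.18 in injured and 0.44 in sham cord before the median is taken off against 0.66 and 0.87 for the brightest, gave a smaller value. By brightest probe sets, Fdft1 was followed by Srebf1 (0.90) and Stard4 (0.83) in injured cord, and by Idi1 (1.03) and Ebp (0.84) in sham cord. A second probe set of Stard4 was called lower on polysomes in both. It gave -0.50 in injured and -0.58 in sham cord before the median is taken off, against 0.42 and 0.34 for its brightest. A second probe set of Idi1 gave 0.42 in sham cord, against 0.72.

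The neighbouring lists and markers below are to be read against all genes tested, of which 13.7% were higher and 25.3% lower on polysomes and 42.1% and 18.1% in total RNA as deposited, and 22.3% and 18.1%, and 22.8% and 18.0%, after quantile normalization over 12 arrays. Of 18 genes of sterol uptake, transport and export, 6 were higher and 8 lower on polysomes, and 7 higher and 4 lower in total RNA. After quantile normalization over 12 arrays these counts were 7 and 5 on polysomes and 4 and 6 in total RNA. Ch25h, which makes 25-hydroxycholesterol, an inhibitor of SREBP release, was 1.66 higher in injured total RNA (SE 0.11, limma adjusted p = 2.2e-07) and 0.49 higher on polysomes (SE 0.11). Lpl, the lipoprotein lipase, was 0.96 higher in total RNA (SE 0.08) and 0.48 higher on polysomes (SE 0.08). Lcat, which esterifies cholesterol on lipoproteins, fell by 0.75 on polysomes (SE 0.06, limma adjusted p = 1.8e-06), with -0.14 in total RNA.

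Of 13 genes of fatty acid oxidation, 12 were higher in total RNA as deposited and 5 after quantile normalization over 12 arrays, and on polysomes 3 were higher and 3 lower under both. Pdk4, the kinase that turns fuel use from glucose to fat, was 1.43 higher in total RNA and 1.19 on polysomes (SE 0.12 each). Cpt2, of mitochondrial fatty acid import, was 0.70 higher in both (SE 0.07 each), and Acadl, a dehydrogenase of long chains, was 0.45 higher in total RNA (SE 0.07), with -0.11 on polysomes. Of 14 other genes of fatty acid activation, elongation and binding, 7 were lower on polysomes, and 6 were higher and 3 lower in total RNA (2 and 5 after quantile normalization). Elovl7, an elongase, fell by 0.76 on polysomes and by 1.03 in total RNA (SE 0.08 each). Acsl6, an acyl-CoA synthetase of the nervous system, fell by 0.84 on polysomes and was 0.33 higher in total RNA (SE 0.08 each), where quantile normalization left 0.05, not called. Tecr, the last enzyme of the elongation cycle, fell by 0.67 on polysomes (SE 0.06).

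Of 5 genes that activate or degrade the SREBP machinery, 4 were higher in total RNA and 2 on polysomes, and 2 in each fraction after quantile normalization over 12 arrays. Mbtps1, the Golgi protease that makes the first cut in SREBP, was 0.39 higher in total RNA (SE 0.09), with 0.05 on polysomes. Ufd1 and Vcp, which extract proteins for degradation, were 0.56 and 0.36 higher in total RNA, and on polysomes Vcp was 0.25 higher and Ufd1 at 0.05 (SE 0.05 each). Of 3 further genes of isoprenoid synthesis, Dhdds rose by 0.31 on polysomes and 0.23 in total RNA (SE 0.05 each), Nus1 rose by 0.41 in total RNA (SE 0.10), and Ggps1 was called in neither as deposited. Neither rise in total RNA was called after quantile normalization.

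Some markers of cell types differed between injured and sham cord, and their part in the results was not tested. Summed levels are the log2 of the added unlogged signals of a list, in which the brightest markers weigh most. Of 11 oligodendrocyte markers, 6 were lower on polysomes, and the summed level of the 11 ran from 15.24 to 15.33 on injured and from 15.46 to 15.50 on sham polysome arrays. In total RNA 2 were higher and 3 lower as deposited, and 1 and 7 after quantile normalization over 12 arrays, with deposited summed levels of 16.01 to 16.14 on injured and 15.99 to 16.04 on sham arrays. Of 9 astrocyte markers, 4 were higher and 3 lower on polysomes, with summed levels of 14.67 to 14.74 on injured and 14.70 to 14.74 on sham arrays, and 6 were higher in total RNA. Of 6 microglia markers, 4 were lower in each fraction, with summed levels of 10.77 to 11.07 on injured and 11.19 to 11.38 on sham polysome arrays. Of 6 monocyte and neutrophil markers, 5 were higher in total RNA, with summed levels of 12.21 to 12.95 on injured and 11.14 to 11.52 on sham arrays. Of 9 neuron markers, 1 was higher and 3 lower on polysomes. In total RNA 6 of the 9 were higher and 2 lower as deposited, and 0 and 2 after quantile normalization over 12 arrays. Of 5 endothelial markers, 1 was lower on polysomes, and 2 were higher and 1 lower in total RNA. The 1 Schwann cell marker tested was 0.78 higher in total RNA and gave -0.40 on polysomes, called lower. The adipocyte marker tested, Fabp4, did not exceed the absent controls throughout any group.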

How the data were processed

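The deposited values are log2 expression values, 1 per probe set and array. The scale was read from their range of 5.26 to 14.65. How the authors corrected background and normalized the arrays is not given in the sources used here. Per the labels, the input to cRNA was 5 µg for total RNA and 3 µg for the polysome fraction. The values were used as deposited. Arrays give no read depth, and the number of arrays limits the precision.

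Of 22690 probe sets, 20393 name 1 gene in the array annotation. A probe set was kept (16566 were) if 3 or more arrays placed it above their 25th percentile, and each gene was represented by its brightest, which left 10371 genes. Changes were estimated with limma 3.58.1 in R 4.3.3, with 4 group means and an intensity trend, and two-sided p-values received Benjamini-Hochberg adjustment over all genes of each of 5 comparisons, at a threshold of 0.05. Errors of log2 changes are standard errors. The procedure was tested on simulated data.

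All genes of the set are named by step. Array values are given for the 14 with the largest called change and for the SREBP genes, and values of up to 3 genes for each neighbouring list. The genes and lists were chosen with earlier results of these data known. The groups share replicate numbers, and the labels do not pair them. Same-numbered samples correlated above 0.1 in every pair only between the fractions of sham cord (0.168 to 0.230), so no block was used. Alternatives of filter, probe set, scaling, moderation, block and left-out arrays follow. Cyclic loess, a centring on the genes tested and the joint removal of 2 injured polysome arrays were added after seeing the data.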

Additional observations from a re-analysis of the deposited data

Results flagged for a closer look

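The injury change on polysomes differed from that in total RNA, by a test of the difference itself, for 17 of the 30 genes. Of the 30, 16 were lower and 1 higher, where 39.3% and 11.0% of all genes tested were. Among the 2593 brightest genes tested these shares were 58.5% and 2.89%, so the count alone does not set the 30 genes apart. Log2 differences, polysome minus total, were -1.14 for Fdps, -1.005 for Nsdhl, -0.98 for Msmo1, -0.90 for Scd1, -0.71 for Fads1 and -0.49 for Tm7sf2, and these were called under all 5 scalings. They were -0.57 for Acly, -0.52 for Elovl6, -0.51 for Insig2, -0.50 for Lss, -0.49 for Acss2, -0.43 for Dhcr7, -0.39 for Sqle, -0.36 for Hsd17b7, -0.32 for Idi1 and -0.25 for Ebp, and each of these was called under at most 1 of the 4 other scalings. Srebf1 differed upwards, by 0.27. Groups of 3 arrays were too small to test single arrays as outliers.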

How the results depend on the processing

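As deposited, 15 genes were lower and 2 higher on polysomes, 5 lower and 9 higher in total RNA, and 16 lower and 1 higher in the difference. Of all genes, 25.3% and 13.7%, 18.1% and 42.1%, and 39.3% and 11.0% were called, in the same order. These shares also moved with the setting and are given with the counts below. On polysomes the higher genes were 4 under both quantile normalizations, 5 under median centring and cyclic loess, and 1 with array weights, the compared groups alone, the dimmest probe set, or injured polysome replicates 1 and 2 left out together. The shares of all genes were 22.3% (over 12 arrays) and 23.5% (within fractions), 28% and 24.6%, and 13%, 9.99%, 9.03% and 11.5%, in that order. In total RNA the higher genes were 1 under both quantile normalizations and cyclic loess, 5 under median centring and 3 for the dimmest probe set. Over all genes these settings gave 22.8%, 21.2%, 21.3%, 31.6% and 29.6% higher. The lower genes there were 16 and 15 under quantile normalization over 12 arrays and within fractions, 12 under cyclic loess, 8 for the mean of probe sets and 13 for the dimmest. The same settings had 18%, 16.6%, 17.6%, 21.6% and 27.5% of all genes lower. In the difference the higher genes were 7 under both quantile normalizations and cyclic loess, 4 under median centring, 3 for the mean of probe sets, 6 for the dimmest and 0 without injured polysome replicates 1 and 2, where limma gave 1 as deposited. Shares higher over all genes were 16%, 16.1% and 18.2%, 27.3%, 12.8%, 15.8% and 8.33% under these settings. The lower genes there were 6 under both quantile normalizations and cyclic loess, where 18.1%, 17.7% and 17.5% of all genes were lower. For polysome against total RNA in injured cord, the higher genes were 11 under quantile normalization over 12 arrays and cyclic loess and 12 under both centrings, and the lower ones 10 under median centring and 12 when centred on the genes tested. Higher shares of all genes were 40.9% and 37.9%, then 47.5% (median centring) and 43.6% (genes tested), and lower shares 26.7% and 28.7%. In sham cord the higher genes were 6 under cyclic loess (33.2% of all genes) and the lower ones 7 under median centring (31.8% of all genes). Leaving out 1 array gave 1 to 3 higher and 14 to 20 lower on polysomes, 5 to 11 higher and 3 to 5 lower in total RNA, and 0 to 2 higher and 14 to 20 lower in the difference. Over those fits 10.5% to 15.8% of all genes were higher and 20.4% to 28.1% lower on polysomes. In total RNA the shares were 35.2% to 46.2% and 15.1% to 19.4%, and in the difference 8.86% to 11.4% and 34.1% to 43.4%. With replicate number as a fixed replicate block, 1 gene was higher and 16 lower on polysomes, 9 and 4 in total RNA and 1 and 16 in the difference, and 7 and 20 against total RNA in injured cord. With that block the shares of all genes were 13.3% and 24.4%, 41.2% and 17.7%, 10.4% and 38.4%, and 13.4% and 72.5%. A random block changed no count. The dimmest probe sets of Fdft1 and Lss did not exceed the absent controls throughout either group in total RNA, nor did those of Fdft1, Sc5d and Scd1 on polysomes. That of Scd2 did so on 1 of 3 injured total arrays. Their values are not exact changes. The number of arrays limits these calls, and genes near the threshold move across it. The cause of each change was not tested.

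Turns of direction are listed here for genes called as deposited or under the setting named. Most turns with no call in either are left out. One such turn is that of Stard4 in total RNA under all 4 other scalings (-0.19 to -0.06). Quantile normalization over 12 arrays turned the direction in total RNA of Idi1 (-0.096), Cyp51 (-0.20), Msmo1 (-0.18), Nsdhl (-0.19), Scap (-0.21), Acss2 (-0.18), Fasn (-0.12), Scd2 (-0.17), Elovl6 (-0.25) and Ggps1 (-0.18) and for the difference of Idi1 (0.043), Sqle (0.0004), Cyp51 (0.29), Ebp (0.036) and Dhcr7 (0.030). Quantile normalization within fractions turned the direction in total RNA of Idi1 (-0.090), Cyp51 (-0.18), Nsdhl (-0.17), Scap (-0.19), Acss2 (-0.17), Fasn (-0.12), Scd2 (-0.19) and Elovl6 (-0.24) and for the difference of Idi1 (0.033), Cyp51 (0.29) and Ebp (0.0071). Cyclic loess turned the direction in total RNA of Idi1 (-0.066), Scap (-0.19), Fasn (-0.087), Scd2 (-0.24), Elovl6 (-0.21) and Ggps1 (-0.19) and for the difference of Idi1 (0.036), Cyp51 (0.30) and Ebp (0.064). Averaging the probe sets of each gene turned the direction of these genes: in total RNA, Fdft1 (-0.0095), Lss (-0.015), Hsd17b7 (-0.26), Sc5d (-0.31), Scd2 (-0.85) and Dhdds (-0.095); on polysomes, Hmgcs1 (-0.19) and Dhdds (-0.011); for the difference, Hsd17b7 (0.22) and Scd2 (0.81); for polysome against total RNA in injured cord, Stard4 (-0.040); for polysome against total RNA in sham cord, Fdft1 (-0.014). The dimmest kept probe set turned the direction of these genes: in total RNA, Hmgcs1 (0.022), Fdft1 (-0.26), Lss (-0.21), Hsd17b7 (-0.70), Sc5d (-0.67), Stard4 (-0.38), Scd1 (-0.25), Scd2 (-2.12), Elovl6 (-0.26), Mbtps1 (-0.20) and Dhdds (-0.45); on polysomes, Hmgcs1 (-0.43), Sc5d (0.018), Stard4 (-0.29), Ufd1 (-0.23) and Dhdds (-0.32); for the difference, Hmgcs1 (-0.45), Fdft1 (0.31), Lss (0.11), Hsd17b7 (0.80), Sc5d (0.69), Scd1 (0.21) and Scd2 (2.74); for polysome against total RNA in injured cord, Stard4 (-0.50) and Fdft1 (-0.49); for polysome against total RNA in sham cord, Fdft1 (-0.80). The brightest specific probe set turned the direction on polysomes of Hmgcs1 (-0.19). It also turned that of Fdft1 (-0.12), which was called by neither probe set.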
